A study of Mus musculus with 47 samples.

Results

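Adrenaline given after removal of the adrenal glands was set against removal of the glands alone in mouse skeletal muscle at ZT12, the time of lights off, where ZT counts hours from lights on. The members are the 8 libraries that the labels place in these conditions, 4 with adrenaline (ADX+ADR, replicates 5 to 8) and 4 without (ADX, replicates 4 to 7), of 47 libraries in the series. All came from the whole tibialis anterior muscle of wild-type female C57BL/6 mice fed ad libitum. Both adrenals were removed in both groups, and saline with glucose made up for the lost mineralocorticoid. ADX+ADR mice were 13 to 14 weeks old and had intraperitoneal adrenaline at 0.5 mg/kg at ZT12 for 10 days, against 13 to 17 weeks and no injection in ADX mice. The design text also gives a wait of 2 weeks before muscle was taken, so the time between the last dose and collection is not settled by the sources used here. There is no vehicle-injected group, so the injection and the hormone cannot be told apart. Beside them stood the same conditions at ZT0 (4 ADX+ADR libraries at 14 weeks and 3 ADX libraries at 12 to 15 weeks). There were also 2 further wild-type groups of 4 libraries at ZT12. These were ADX mice given the synthetic glucocorticoid dexamethasone at 5 mg/kg on the same schedule (ADX+DEX, 14 weeks) and sham-operated mice with adrenals (sham, 10 to 12 weeks).

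Adrenaline from the adrenal medulla acts on muscle through adrenergic receptors that raise cyclic AMP (cAMP) and activate protein kinase A and the transcription factor CREB. CREB switches on a fast set of genes through the cAMP response element, among them the NR4A orphan nuclear receptors, the kinase Sik1 and the repressor Crem, and these messages are short-lived. The adrenal cortex makes glucocorticoids, whose receptor switches on genes such as Fkbp5, Tsc22d3 and Klf15 and also Per1, a member of the circadian clock. Removal of the glands therefore takes away both hormones, while adrenaline injections put back 1 of them.

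The deposited values are FPKM (fragments scaled by gene length and library size) on a log2 scale with an offset of 0.01, and means below are FPKM ± SD over 4 libraries unless stated. Depth, recovered from the spacing of low values, came to 21.4 to 29.7 M reads in ADX+ADR libraries and 19.5 to 26.3 M reads in ADX libraries. Pearson's r of log2 values across genes, given as a description, was 0.944 to 0.964 within ADX+ADR, 0.935 to 0.955 within ADX and 0.774 to 0.857 between them. Libraries of 1 group shared 14 to 26 exact low values in ADX+ADR and 10 to 22 in ADX, while pairs across the groups shared 0 to 1. If libraries of 1 group are not fully separate samples, the p-values below are too small. Between 153 and 207 genes were listed at exactly 0 in an ADX+ADR library and 238 to 335 in an ADX library. Strongly expressed genes were among them, so a 0 was not read as absence of a transcript. No fold of a single gene was computed from a 0. In the tests and the list medians a 0 entered at the offset of 0.01 FPKM. The summed FPKM of 10 skeletal muscle identity markers was 66500 to 76300 in ADX+ADR libraries and 70400 to 77300 in ADX libraries, so the muscle label was borne out by its markers in both groups.

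A further difference between the groups lay in genes known to vary between C57BL/6 substrains. Nnt, the mitochondrial transhydrogenase that C57BL/6J mice lack, read 10.4, 9.86, 10.9 and 10.6 FPKM in ADX+ADR libraries and was listed at 0 in all 4 ADX libraries. Wdfy1 read 2.07, 1.69, 1.52 and 1.45 FPKM in ADX+ADR libraries, against 0.408, 0.132, 0.273 and 0.622 in ADX libraries. Cyfip2 read 9.93 to 14.1 FPKM in ADX+ADR libraries and was listed at 0 in all ADX libraries. All 3 measured substrain genes thus parted the groups without overlap, and the part of genetic background in the results below was not tested and cannot be told apart from treatment in this comparison. Nnt was at 0 in 2 of 4 sham libraries and at 4.97 and 13.5 FPKM in the other 2, and it read 12.7 to 15.1 FPKM in ADX+DEX libraries. Cyfip2 was at 0 in all 4 sham libraries, those with Nnt included, and read 8.96 to 10.2 FPKM in ADX+DEX libraries. In sham replicates 6 and 7, where Nnt and Cyfip2 were at 0, the 3 genes still summed to 4.11 and 2.16 FPKM. The 3 genes thus did not go together in sham. Zeros of Nnt and Cyfip2, like the others here, were not read as absence of a transcript.

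Over the whole table, calls were common in both directions. By limma's moderated test with Benjamini-Hochberg adjustment over 12000 genes, 3326 (27.7%) were called higher in ADX+ADR and 3031 (25.3%) lower, 53.0% together, at an adjusted p under 0.05. Most differences were small: 628 genes were called at least 2-fold higher and 487 at least 2-fold lower. The median log2 difference of all tested genes was 0.01. The groups did not overlap in 5697 tested genes (47.5%). Counts of members below are read against these shares.

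The largest rises included transcription factors and the clock gene Per1, which hormones and activity induce. Nr4a2 (ENSMUSG00000026826, chr2:57106830-57124003, minus strand), an orphan nuclear receptor, had 26.9, 29.5, 31.2 and 26.1 FPKM in ADX+ADR libraries, against 0.755, 0.546, 0.859 and 0.556 in ADX libraries. No library came near the other group, and the log2 difference was 5.39 ± 0.83 (SE, adjusted p = 1.51e-06), or 41.9-fold on that scale. The neighbouring paralogs C2cd4b and C2cd4a, small nuclear-localised proteins, averaged 3.61 ± 1.25 and 2.89 ± 0.859 FPKM in ADX+ADR against 0.0838 ± 0.0192 and 0.0975 ± 0.047 in ADX (SD, n = 4 each), differences of 5.24 and 4.83 on the log2 scale. Junb, a subunit of the AP-1 transcription factor, read 107, 125, 140 and 105 FPKM in ADX+ADR libraries, against 6.85, 5.59, 6.60 and 1.90 in ADX libraries (4.66 ± 1.27, adjusted p = 0.00235). The other 8 largest rises were Nudt18, Per1, Csrnp1, Socs2, Uts2r, Klhl38, Cbarp and Apold1, 9.12 to 18.9-fold higher on the same scale. Of these, Socs2, a feedback inhibitor of cytokine signalling, lost its call when ADX+ADR replicate 7 (adjusted p = 0.06 by limma), ADX replicate 4 (0.055) or ADX replicate 7 (0.10) was left out.

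The largest falls included collagen, signalling and microRNA genes. Lfng, a glycosyltransferase that tunes Notch receptors, had 0.261, 0.0423, 0.144 and 0.167 FPKM in ADX+ADR libraries, against 2.55, 1.45, 1.82 and 1.83 in ADX libraries, a difference of -3.75 ± 0.28 (limma, adjusted p = 4.14e-13). The locus of the muscle microRNA miR-133a-1 averaged 0.907 ± 0.353 FPKM in ADX+ADR and 10.6 ± 6.31 in ADX (log2 difference -3.47). Short loci such as this one are poorly measured in libraries of long RNA. The perinatal myosin Myh8 stood at 0.215 ± 0.0811 FPKM in ADX+ADR and 2.37 ± 1.16 in ADX. For several of the other falls ADX+ADR replicate 7 lay far under its group: the filamin-binding Rflnb read 11.3, 6.53, 0.0115 and 2.66 FPKM in ADX+ADR against 29.8, 24.9, 30.7 and 21.6 in ADX, and Fabp5, a fatty acid binding protein, 1.43, 0.484, 0.00353 and 0.938 against 4.04, 3.56, 3.69 and 2.79. Both lost their calls when only the 2 groups were in the model. Col24a1, Mir3058, Olfr558, Col14a1, Dok4, Has3 and Lbh completed the 12 largest falls, with ADX+ADR levels 0.0658 to 0.124 times those of ADX on that scale. Of these, Mir3058 lost its call with age as a covariate (limma, adjusted p = 0.0801), without ADX+ADR replicate 7 (0.15) and without ADX+ADR replicate 8 (0.0805).

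Genes of the cAMP response were higher as a group, while most measured parts of the signalling chain above them were not. Of 23 tested cAMP and adrenergic response genes 15 were called higher in ADX+ADR, 1 was called lower and 7 did not pass, with a median log2 difference of 1.07, against 27.7% of all tested genes called higher and 25.3% lower. All 3 NR4A receptors, Sik1, Maff, Fosl2, Gem, Irs2, Crem, Pde7a, Mstn, Atf3, Dusp1 and Btg2 were among the rises, and Rrad, a small GTPase that restrains calcium channels, was the fall. Without ADX replicate 7 the rises numbered 13, and Rrad lost its call without ADX replicate 4 or 6 or ADX+ADR replicate 6, 7 or 8.

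Nr4a1 (chr15:101254269-101274795), the most abundant NR4A receptor in these muscles, read 213, 243, 287 and 237 FPKM in ADX+ADR libraries, against 63.4, 71.9, 73.8 and 48.4 in ADX libraries. Every ADX+ADR library was above every ADX library (1.94 ± 0.31, limma, adjusted p = 3.35e-06), 3.83-fold. Nr4a3 averaged 6.83 ± 1.06 FPKM in ADX+ADR and 1.31 ± 0.564 in ADX (2.44 ± 0.60, adjusted p = 0.000799). Sik1, the salt-inducible kinase that shuts off CREB coactivators in a feedback loop, read 27.9, 32.4, 35.3 and 29.6 FPKM in ADX+ADR libraries, against 4.01, 4.37, 4.39 and 3.13 in ADX libraries, 7.90-fold (2.98 ± 0.56, adjusted p = 3.46e-05). These 2 groups again did not overlap.

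Further transcription factors of this response moved with them. Fosl2, an AP-1 subunit, averaged 13.2 ± 0.845 FPKM in ADX+ADR and 2.97 ± 0.312 in ADX, and Maff, a small Maf protein, 6.52 ± 1.53 in ADX+ADR and 1.36 ± 0.145 in ADX. Irs2, an insulin receptor substrate induced by cAMP in other tissues, had 8.41, 10.1, 12.7 and 7.93 FPKM in ADX+ADR libraries, against 4.34, 5.00, 4.54 and 4.26 in ADX libraries (1.08 ± 0.24, limma, adjusted p = 0.000293). The GTPase Gem averaged 3.73 ± 0.268 in ADX+ADR and 1.54 ± 0.221 in ADX. Crem, whose short isoform is the inducible repressor ICER, differed little, with 3.23 ± 0.217 FPKM in ADX+ADR and 2.68 ± 0.225 in ADX (limma, adjusted p = 0.0463), and lost its call when any 1 of 6 of the 8 libraries was left out, at adjusted p-values up to 0.147. Ppargc1a, the coactivator of mitochondrial genes that adrenergic signals induce, stood at 6.15 ± 0.518 FPKM in ADX+ADR and 5.13 ± 0.27 in ADX, which did not pass (adjusted p = 0.0552) except with only the 2 groups in the model (0.0164).

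Outside the list, 4 genes with the same profile were chosen after their values were seen. Hes1, a repressor downstream of Notch and CREB, read 44.1, 49.7, 55.7 and 43.1 FPKM in ADX+ADR libraries, against 9.08, 9.48, 9.31 and 6.91 in ADX libraries (2.47 ± 0.15, limma, adjusted p = 2.1e-15). Klf10 averaged 35.5 ± 2.35 FPKM in ADX+ADR and 5.74 ± 0.961 in ADX, the mitochondrial ATP-magnesium carrier Slc25a25 31.9 ± 4.55 in ADX+ADR and 5.92 ± 0.422 in ADX, and the prostaglandin E receptor Ptger4 3.06 ± 0.0603 in ADX+ADR and 0.551 ± 0.0384 in ADX.

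**Figure D1:**
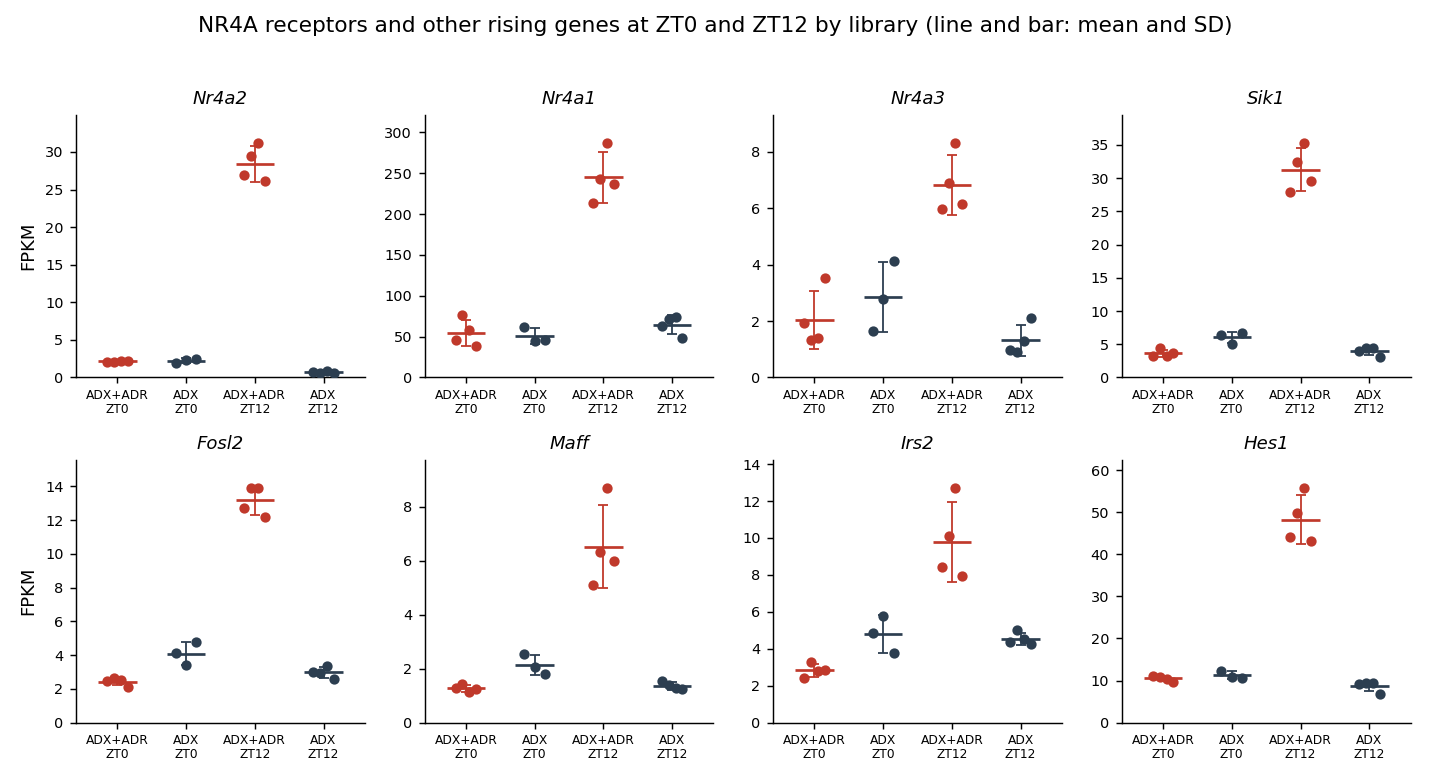
FPKM of 8 genes, Hes1 and members of the cAMP response list, in each library (points, with mean and SD as line and bar) for ADX+ADR and ADX mice at ZT0 and at ZT12. Hes1 is outside that list and was chosen after its values were seen. At ZT12 every ADX+ADR library lies above every ADX library in all 8 genes, as for Nr4a2 with 26.1 to 31.2 FPKM against 0.546 to 0.859, while at ZT0 the means of Nr4a2 were 2.14 FPKM in ADX+ADR and 2.24 in ADX.

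Receptors and signalling proteins upstream did not rise as a group: of 22 tested members of the adrenergic receptor and cAMP signalling list 3 were called higher and 9 lower, with a median log2 difference of -0.08. The adenylyl cyclase Adcy9 averaged 7.99 ± 0.658 FPKM in ADX+ADR and 5.64 ± 0.868 in ADX. Falls were small and included the inhibitory G protein subunit Gnai2 (23.6 ± 4.78 in ADX+ADR, 33.4 ± 1.46 in ADX), the protein kinase A regulatory subunit Prkar1a (41.3 ± 3.42 and 52.8 ± 1.17), the receptor kinase Grk5 (1.72 ± 0.359 and 2.59 ± 0.244) and the CREB-binding coactivator Crebbp (1.96 ± 0.141 and 2.80 ± 0.171).

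The promoters of the members that moved were read for 3 motifs, because CREB, clock proteins and D-box factors bind short known sequences: the cAMP response element TGACGTCA, the E-box CACGTG and the D-box TTATGTAA, each searched on both strands. RefSeq windows on GRCm38.p6, from 250 bases before to 50 after the start, were at hand for 10 of the 16 called cAMP response genes, 8 of 10 called clock genes and 20 of 26 called glucocorticoid targets. The cAMP response element stood in 3 of the 10 cAMP response windows (30%), in 0 of the 8 clock windows and in 2 of the 20 glucocorticoid windows (10.0%), against 2.03% of 27025 genes. The E-box stood in 3 (30%), 3 (37.5%) and 5 (25.0%) of them, against 8.09% of all genes, and the D-box in Per3 alone, against 1.11% of all genes. Dusp1 is in both the cAMP and the glucocorticoid lists, and Per1 in both the clock and the glucocorticoid lists. The windows that hold a cAMP response element, and those of Per1 and Per3, follow with the motifs in capitals.
Dusp1, chr17:26508423-26508722, minus strand: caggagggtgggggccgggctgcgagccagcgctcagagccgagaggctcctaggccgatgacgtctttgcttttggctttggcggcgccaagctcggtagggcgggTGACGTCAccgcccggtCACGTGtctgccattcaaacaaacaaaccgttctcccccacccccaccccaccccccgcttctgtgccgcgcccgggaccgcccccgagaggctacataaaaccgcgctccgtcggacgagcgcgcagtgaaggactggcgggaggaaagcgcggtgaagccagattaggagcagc
Maff, chr15:79347270-79347569, plus strand: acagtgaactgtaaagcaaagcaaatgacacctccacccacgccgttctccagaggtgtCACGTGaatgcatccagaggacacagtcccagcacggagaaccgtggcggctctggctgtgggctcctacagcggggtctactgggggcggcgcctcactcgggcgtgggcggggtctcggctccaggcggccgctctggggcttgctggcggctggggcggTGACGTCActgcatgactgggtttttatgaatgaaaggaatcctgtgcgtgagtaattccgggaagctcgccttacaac
Btg2, chr1:134079106-134079405, minus strand: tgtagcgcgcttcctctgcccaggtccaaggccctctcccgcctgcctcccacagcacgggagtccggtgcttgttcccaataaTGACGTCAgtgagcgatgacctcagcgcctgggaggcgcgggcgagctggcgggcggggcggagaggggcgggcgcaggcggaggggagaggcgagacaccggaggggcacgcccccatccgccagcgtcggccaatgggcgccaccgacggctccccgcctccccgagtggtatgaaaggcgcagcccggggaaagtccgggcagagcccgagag
Errfi1, chr4:150854820-150855119, plus strand: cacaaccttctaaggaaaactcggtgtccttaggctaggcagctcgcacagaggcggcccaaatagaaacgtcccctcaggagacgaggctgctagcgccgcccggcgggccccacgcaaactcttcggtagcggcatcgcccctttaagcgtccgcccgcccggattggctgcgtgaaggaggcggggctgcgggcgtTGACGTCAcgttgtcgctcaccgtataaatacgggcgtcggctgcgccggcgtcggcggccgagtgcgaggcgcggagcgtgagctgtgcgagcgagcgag
Per1, chr11:69098699-69098998, plus strand: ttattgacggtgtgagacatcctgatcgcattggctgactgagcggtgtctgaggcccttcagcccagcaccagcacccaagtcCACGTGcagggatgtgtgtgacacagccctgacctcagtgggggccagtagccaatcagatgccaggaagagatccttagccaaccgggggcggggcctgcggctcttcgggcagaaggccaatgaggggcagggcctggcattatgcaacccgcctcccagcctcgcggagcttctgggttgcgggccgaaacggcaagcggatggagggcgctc
Per3, chr4:151044616-151044915, minus strand: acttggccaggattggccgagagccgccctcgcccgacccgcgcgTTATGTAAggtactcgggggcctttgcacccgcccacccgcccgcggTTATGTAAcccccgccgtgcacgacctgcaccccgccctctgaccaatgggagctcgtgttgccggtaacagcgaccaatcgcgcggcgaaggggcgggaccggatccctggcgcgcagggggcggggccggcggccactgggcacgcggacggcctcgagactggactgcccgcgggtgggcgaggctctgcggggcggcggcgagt
Dusp1 and Maff each hold both a cAMP response element and an E-box, closer together in Dusp1. Per3 holds 2 D-boxes. A match describes the letters and is not evidence of binding, and its absence says only that these letters are not in the window.

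Immediate early genes, which nerve activity, stress and handling induce in muscle as hormones do, were also higher. Of 19 tested members 14 were called higher in ADX+ADR and 0 lower, with a median log2 difference of 2.16. Among the 19, 8 have a value listed at 0 in the 8 libraries, which enters that median at the offset. Fos, an AP-1 subunit, read 61.7, 76.4, 95.5 and 71.6 FPKM in ADX+ADR libraries, against 3.23, 0, 10.1 and 0 in ADX libraries. Btg2, an antiproliferative factor, read 70.0, 82.8, 112 and 74.0 FPKM in ADX+ADR and 4.27, 3.78, 5.84 and 0 in ADX, and the MAP kinase phosphatase Dusp1 read 66.0, 69.5, 94.0 and 70.6 against 9.37, 2.03, 11.0 and 0. The groups were far apart in each of the 3, but the ADX value at 0 in replicate 7 (and, for Fos, in replicate 5) leaves no fold. Jun averaged 60.3 ± 5.01 FPKM in ADX+ADR and 16.3 ± 8.37 in ADX (2.16 ± 0.37, limma, adjusted p = 9.85e-06), Ier2 17.4 ± 1.05 and 8.99 ± 3.23, and Myc 2.61 ± 0.326 and 1.39 ± 0.615. Egr1 read 15.9, 19.4, 28.8 and 18.4 FPKM in ADX+ADR libraries, against 8.76, 8.16, 13.7 and 0 in ADX libraries, and did not pass (adjusted p = 0.0567).

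ADX replicate 7 was the lowest of its group in 18 of these 19 genes and ADX+ADR replicate 7 the highest of its group in 13. Without ADX replicate 7 the members called higher numbered 10, and without ADX+ADR replicate 7 they numbered 13. The part of handling or of that library in this result was not tested.

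Whether the effect of adrenaline differed by time of day was tested as the difference at ZT12 minus that at ZT0. Here 240 genes (2.00%) were called higher and 314 (2.62%) lower, 4.62% together. The total of 554 fell to 366 with only the 4 groups in the model and to 340 without ADX+ADR replicate 3 at ZT0. Of the cAMP response genes 9 of 23 were called higher and 1 lower. For Nr4a2 the ZT0 means were 2.14 ± 0.109 FPKM in ADX+ADR (n = 4) and 2.24 ± 0.304 in ADX (n = 3), and the difference between the effects was 5.45 ± 1.22 (limma, adjusted p = 0.00575). Sik1 averaged 3.62 FPKM in ADX+ADR and 6.06 in ADX at ZT0 (3.72, adjusted p = 0.00557), Maff 1.27 and 2.14 (2.97, adjusted p = 1.43e-05), Fosl2 2.43 and 4.10 (2.89, adjusted p = 2.53e-05) and Irs2 2.83 and 4.80 (1.83, adjusted p = 0.00144). In these 4 genes the ADX+ADR mean was thus under the ADX mean at ZT0 and above it at ZT12. Hes1 averaged 10.5 FPKM in ADX+ADR and 11.3 in ADX at ZT0 (2.57, adjusted p = 4.1e-10).

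Of the 19 immediate early genes 2 (Jund and Myc) were called higher in this test and 0 lower, and Myc kept its call in 11 of 24 settings. Jun stood at 53.8 FPKM in ADX+ADR and 10.5 in ADX at ZT0, against 60.3 and 16.3 at ZT12, and its effects at the 2 times differed by -0.36 (limma, adjusted p = 0.789). Of the glucocorticoid targets 2 of 28 were called higher and 1 lower, among them Pnmt, the adrenaline-making enzyme, which was lower. All ADX libraries at ZT0 are listed at 0 for Pnmt, so no size is given. Injections were given at ZT12, so clock time and hours since a dose cannot be told apart here.

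Glucocorticoid-responsive genes were the list with the highest share called higher among the signalling and clock lists, although no glucocorticoid was given. Of 28 tested members 24 were called higher in ADX+ADR and 2 lower, with a median log2 difference of 1.70. Among the 28, 8 have a value listed at 0 in the 8 libraries, which enters that median at the offset. The list overlaps the cAMP response in Dusp1 and the clock list in Per1, and several other members answer to cAMP as well, among them Cebpb and Sgk1. The count ran from 22 to 24 when each of the 8 libraries was left out in turn.

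Klf15 (chr6:90462576-90475238), a regulator of amino acid breakdown, had 21.4, 23.8, 24.7 and 23.3 FPKM in ADX+ADR libraries, against 7.37, 7.35, 7.37 and 7.29 in ADX libraries (1.66 ± 0.14, limma, adjusted p = 1.73e-11). ADX+DEX averaged 28.6 ± 2.46 and sham 20.1 ± 2.79, so the ADX+ADR mean lay between them, and it did not differ past the test from either. Tsc22d3, the anti-inflammatory leucine zipper GILZ, averaged 53.8 ± 2.89 FPKM in ADX+ADR, 56.1 ± 7.34 in ADX+DEX, 35 ± 2.42 in ADX and 50.3 ± 6.42 in sham. Glul, glutamine synthetase, averaged 84.1 ± 8.39 in ADX+ADR, 83.2 ± 3.86 in ADX+DEX and 34.2 ± 8.95 in ADX, while sham was highest at 111 ± 16.3. In these 3 genes ADX+ADR and sham did not differ past the test, with log2 differences of 0.22, 0.11 and -0.39.

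Other members read above ADX in every library but had lower means than under dexamethasone. Fkbp5, the receptor's co-chaperone, read 8.94, 8.99, 9.47 and 9.08 FPKM in ADX+ADR libraries and was listed at 0 in all 4 ADX libraries, against a mean of 36.7 ± 0.879 in ADX+DEX (limma, adjusted p = 0.0831 between ADX+ADR and ADX+DEX, not past the threshold). The metallothioneins Mt1 and Mt2, near-identical copies whose reads may be shared, read 12.3 to 16.8 and 13.8 to 15.5 FPKM in ADX+ADR. They were listed at 0 in all ADX libraries and averaged 95.9 and 89.2 in ADX+DEX, again not past limma's test between ADX+ADR and ADX+DEX (0.0574 and 0.207). Yet no ADX+DEX library read under 35.4 FPKM for Fkbp5, 91.7 for Mt1 or 82.7 for Mt2, so these groups did not overlap. The test takes its spread from all 12 groups, which include mice labelled RE-RE rather than wild type, not from these groups alone. The transcription factor Cebpd and the mTORC1 inhibitor Ddit4 read 6.89 to 8.63 and 3.54 to 5.56 FPKM in ADX+ADR, were at 0 in all ADX libraries, and averaged 88.8 and 64.3 in ADX+DEX, which passed (0.0474 and 0.0105). Cdkn1a, the cell cycle inhibitor p21, averaged 14.1 ± 0.668 in ADX+ADR, 43.2 ± 2.65 in ADX+DEX and 3.16 ± 0.551 in ADX (ADX+ADR against ADX+DEX -1.62, limma, adjusted p = 0.00222). Pnmt had 0.765 ± 0.101 FPKM in ADX+ADR, 39.9 ± 4.33 in ADX+DEX and 0.141 ± 0.148 in ADX.

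Cebpb, a C/EBP transcription factor, read 32.3, 45.8, 56.9 and 38.8 FPKM in ADX+ADR libraries, against 11.3, 17.6, 12.5 and 8.95 in ADX libraries (1.80 ± 0.26, limma, adjusted p = 6.87e-07). Sgk1, a kinase induced by corticosteroids, averaged 51.5 ± 5.88 FPKM in ADX+ADR and 24.1 ± 5.67 in ADX, Zbtb16 11.1 ± 2.26 and 3.79 ± 0.494, Errfi1, an inhibitor of the EGF receptor, 12.1 ± 1.11 and 3.81 ± 1.34, and Klf9 50.5 ± 3.71 and 37.9 ± 3.89. The 2 members called lower were the glucocorticoid receptor gene itself, Nr3c1 (16.2 ± 1.92 in ADX+ADR, 23.4 ± 1.01 in ADX), and Sesn1 (10.1 ± 1.63 in ADX+ADR, 14.5 ± 1.01 in ADX).

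**Figure D2:**
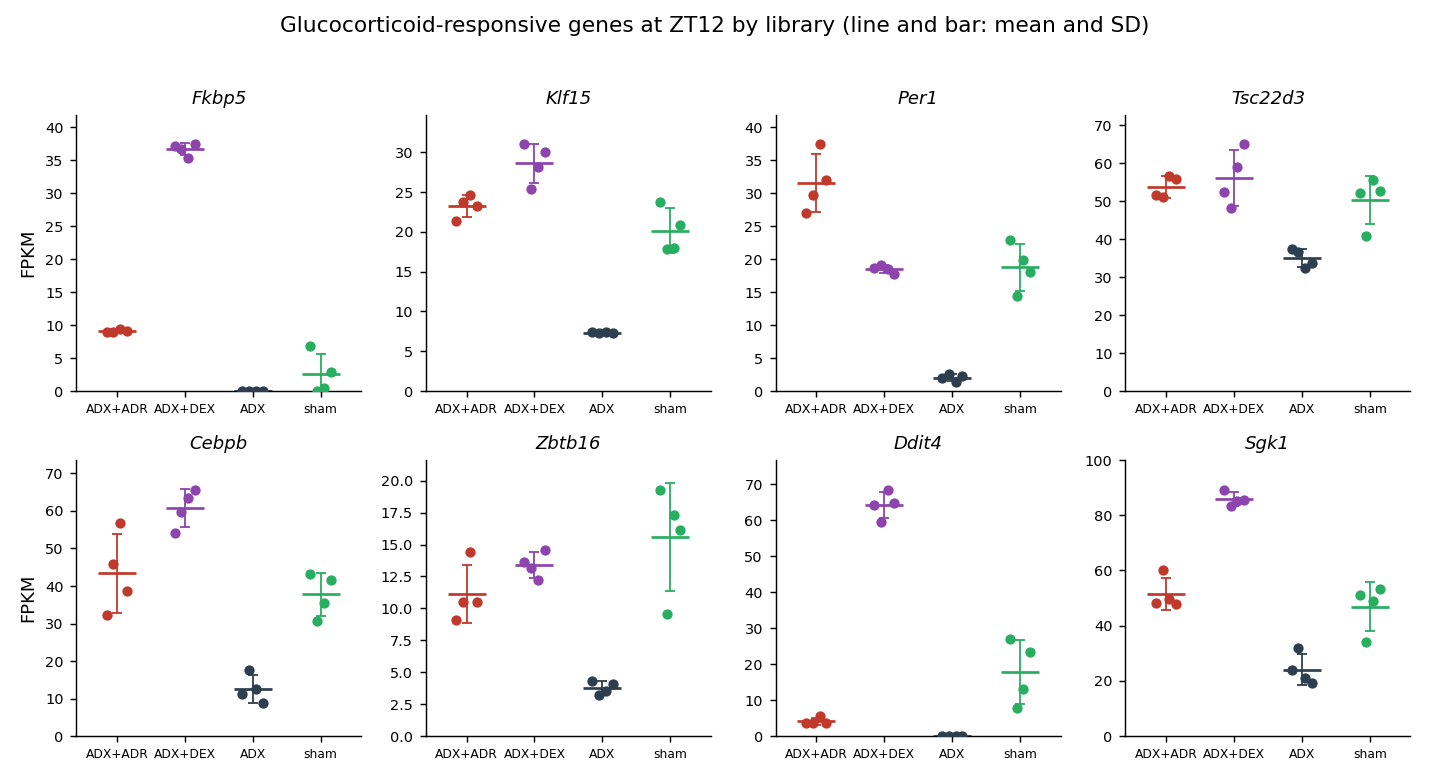
FPKM of 8 glucocorticoid-responsive genes at ZT12 in each library (points, with mean and SD as line and bar) of ADX+ADR, ADX+DEX, ADX and sham mice. ADX is lowest by mean in all 8 panels, and Fkbp5, Ddit4 and Sgk1 are lower in ADX+ADR by mean (9.12, 4.14 and 51.5 FPKM) than in ADX+DEX (36.7, 64.3 and 85.9).

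In the muscle clock, 10 of 19 tested genes were called in either direction, close to the 53.0% of all tested genes. The calls were mostly rises, and these took in both activators and repressors. The clock works as a loop in which BMAL1 (Arntl) with CLOCK drives Per, Cry and Rev-erb genes, whose products shut it off. In ADX+ADR 9 members were called higher, 1 was called lower and 9 did not pass, with a median log2 difference of 0.41. Of all tested genes 27.7% were called higher and 25.3% lower. Per1 (chr11:69095217-69109960), which both CREB and the glucocorticoid receptor induce, read 27, 29.8, 37.4 and 32.0 FPKM in ADX+ADR libraries, against 1.91, 2.60, 1.38 and 2.21 in ADX libraries. The groups were far apart (3.98 ± 1.26, limma, adjusted p = 0.00792). ADX+DEX averaged 18.5 ± 0.612 (17.7 to 19.1) and sham 18.8 ± 3.58 (14.4 to 22.9), so every library of both lay under every ADX+ADR library. Neither difference from ADX+ADR passed the test, whose spread is pooled over all 12 groups. Per2 did not differ past the test, with 3.28 ± 0.365 FPKM in ADX+ADR and 3.55 ± 0.408 in ADX. Per3 was lower, at 5.89, 6.11, 4.37 and 5.98 FPKM in ADX+ADR libraries against 7.73, 8.36, 7.61 and 7.56 in ADX libraries (-0.49 ± 0.14, adjusted p = 0.00433). The 3 Period genes thus gave a rise, no call and a fall.

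Of the activators, Clock averaged 2.09 ± 0.155 FPKM in ADX+ADR and 1.58 ± 0.172 in ADX (0.41 ± 0.09, limma, adjusted p = 0.00042). Arntl read 5.66, 5.96, 6.19 and 6.29 FPKM in ADX+ADR libraries, against 1.24, 1.46, 2.08 and 2.42 in ADX libraries. These groups did not overlap, but the difference of 1.79 ± 0.81 missed the threshold (adjusted p = 0.0602), with a spread pooled over all 12 groups. It passed on log2(FPKM + 1) at 1.04e-07 and with only the 2 groups in the model at 0.000478. Npas2, a partner of BMAL1, was listed at 0 in all ADX libraries and read 0.00491 to 0.0902 FPKM in ADX+ADR, where it is barely measurable.

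Among repressors and output factors, the Rev-erb alpha gene Nr1d1 averaged 34.6 ± 3.48 FPKM in ADX+ADR and 17.7 ± 3.62 in ADX (0.98 ± 0.17, limma, adjusted p = 1.56e-05), and its paralog Nr1d2 33.8 ± 1.27 and 35 ± 1.48 (adjusted p = 0.677). The D-box repressor Nfil3 read 14.7, 16.1, 20.1 and 17.9 FPKM in ADX+ADR libraries, against 6.05, 5.30, 5.19 and 2.55 in ADX libraries (1.91 ± 0.33, adjusted p = 8.57e-06), while the D-box activator Dbp read 45.5 ± 9.98 in ADX+ADR and 37.8 ± 9.06 in ADX, with overlapping libraries (adjusted p = 0.846). The E-box repressors Bhlhe40 (74.7 ± 5.62 in ADX+ADR, 48.2 ± 3.79 in ADX) and Bhlhe41 (13.7 ± 2.07 and 8.10 ± 0.898) were higher. Ciart, a repressor of CLOCK and BMAL1, read 3.08 to 4.21 FPKM in ADX+ADR libraries and 0 to 0.167 in ADX libraries. Bhlhe40, Per3 and Nr1d2 differed between the 2 times in the size of the adrenaline effect (1.26, 1.28 and 0.72, each past the test).

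**Figure D3:**
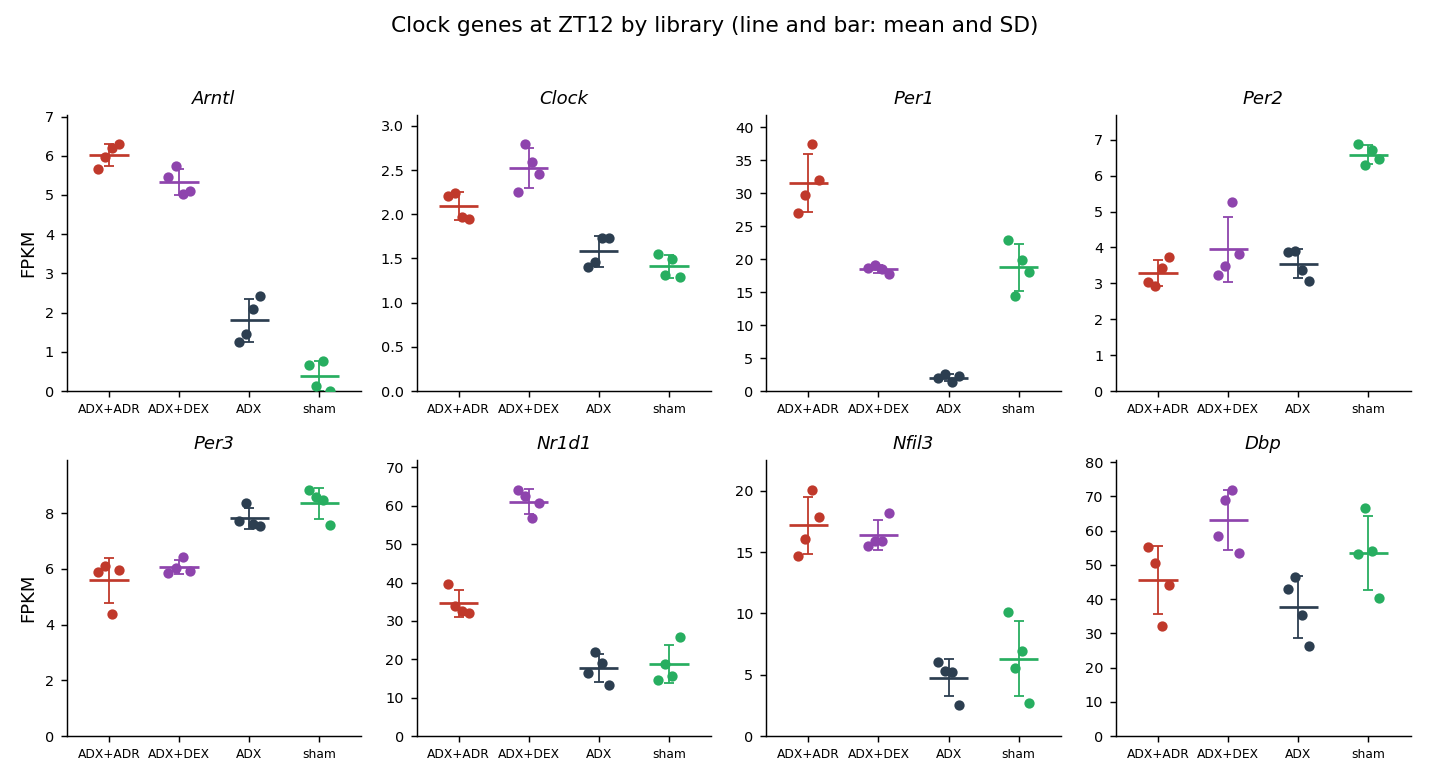
FPKM of 8 clock genes at ZT12 in each library (points, with mean and SD as line and bar) of ADX+ADR, ADX+DEX, ADX and sham mice. Per1, Nr1d1 and Nfil3 are higher in every ADX+ADR library than in every ADX library, Per3 is lower (4.37 to 6.11 FPKM against 7.56 to 8.36), and Per2 and Dbp overlap.

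Of the muscle genes with a daily rhythm 7 of 14 tested members were called higher and 1, Por, lower, with a median log2 difference of 0.54. Tcap, the titin cap protein, averaged 2970 ± 102 FPKM in ADX+ADR and 1890 ± 252 in ADX, the deubiquitinase Usp2 50.2 ± 4.25 and 30.5 ± 2.45, the myosin kinase Mylk4 467 ± 52.4 and 314 ± 28.2, and Tacc2 75.5 ± 4.16 and 40.6 ± 2.35. Sham lay close to ADX+ADR in Tcap (2690 ± 326), Mylk4 (454 ± 42.9) and Tacc2 (72.0 ± 4.27), with no call between these groups for any of the 3. Pdk4, which switches muscle from glucose to fat, read 77.4, 63.9, 273 and 125 FPKM in ADX+ADR libraries and 131, 179, 159 and 243 in ADX libraries, so the groups overlapped and 1 ADX+ADR library set its mean.

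Genes of oxidative metabolism were higher by small amounts. Of 50 tested nuclear-encoded respiratory chain subunits 46 were called higher in ADX+ADR and 0 lower, with a median log2 difference of 0.29, and the count ran from 40 without ADX+ADR replicate 7 to 48 without ADX+ADR replicate 5. Within ADX+ADR, replicate 7 was the highest in 46 of the 50 and replicate 5 the lowest in 44, and the part of these libraries in the size of the difference was not tested. Ndufs7, a complex I subunit, read 148, 154, 180 and 169 FPKM in ADX+ADR libraries, against 116, 118, 109 and 108 in ADX libraries (0.53 ± 0.06, limma, adjusted p = 3.07e-09). The ATP synthase subunits Atp5c1 and Atp5g1 averaged 342 ± 26.6 and 30.8 ± 3.85 FPKM in ADX+ADR and 258 ± 6.75 and 19.9 ± 1.34 in ADX. Messages encoded by mitochondrial DNA were called higher in 12 of 13 cases, with a median log2 difference of 0.55. For mt-Nd2 the mean was 13800 ± 1170 FPKM in ADX+ADR and 9420 ± 708 in ADX. Of the 13, 4 have a value listed at 0 in the 8 libraries, among them mt-Co3 with 17.6, 18.9, 46.6 and 23.1 FPKM in ADX+ADR against 18.6, 0, 0 and 0 in ADX. ADX+ADR replicate 7 was the highest of its group in 10 of the 13. The 1 called lower, mt-Nd3, lost that call without ADX replicate 6 or 7 or ADX+ADR replicate 6. Against sham the respiratory chain differed in fewer members, 6 higher and 1 lower, where 17.1% of all tested genes were called higher and 21.9% lower.

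Regulators of this program were called higher in 12 of 22 cases and lower in 2, or 1 lower without ADX replicate 5 or 7 or ADX+ADR replicate 5. The nuclear receptor Esrra averaged 49.2 ± 4.52 FPKM in ADX+ADR and 32.6 ± 2.97 in ADX (0.59 ± 0.08, limma, adjusted p = 4.57e-07), Ppara 2.45 ± 0.168 and 0.827 ± 0.258, and the mitofusin Mfn1 55.5 ± 5.17 and 39.8 ± 1.46. Nnt is counted among the 12.

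Fatty acid genes were called higher in 23 of 37 cases and lower in 4, with a median log2 difference of 0.36. Without ADX+ADR replicate 7, the highest of its group in 28 of the 37, the lower calls numbered 2. The lipid droplet coat gene Plin3 read 16.8, 17.2, 20.5 and 17.9 FPKM in ADX+ADR libraries, against 4.84, 3.53, 2.47 and 4.54 in ADX libraries (2.28 ± 0.33, limma, adjusted p = 6.45e-07). Acsl1, which activates long-chain fatty acids, averaged 41.8 ± 4.26 in ADX+ADR and 22.9 ± 4.67 in ADX, the beta-oxidation enzyme Acadm 91.2 ± 8.46 and 60.7 ± 3.42, and Abhd5, the activator of triglyceride lipase, 15.0 ± 0.639 and 11.5 ± 0.407. Of 34 glucose and glycogen genes 15 were called higher and 5 lower, with 3 lower without ADX+ADR replicate 7 or ADX replicate 7. Slc2a4, the insulin-responsive transporter GLUT4, averaged 178 ± 10.9 FPKM in ADX+ADR and 111 ± 8.27 in ADX, the glycogen branching enzyme Gbe1 19.1 ± 3.19 and 8.61 ± 1.51, and hexokinase Hk1 1.11 ± 0.195 and 2.01 ± 0.182, a fall. 

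**Figure D4:**
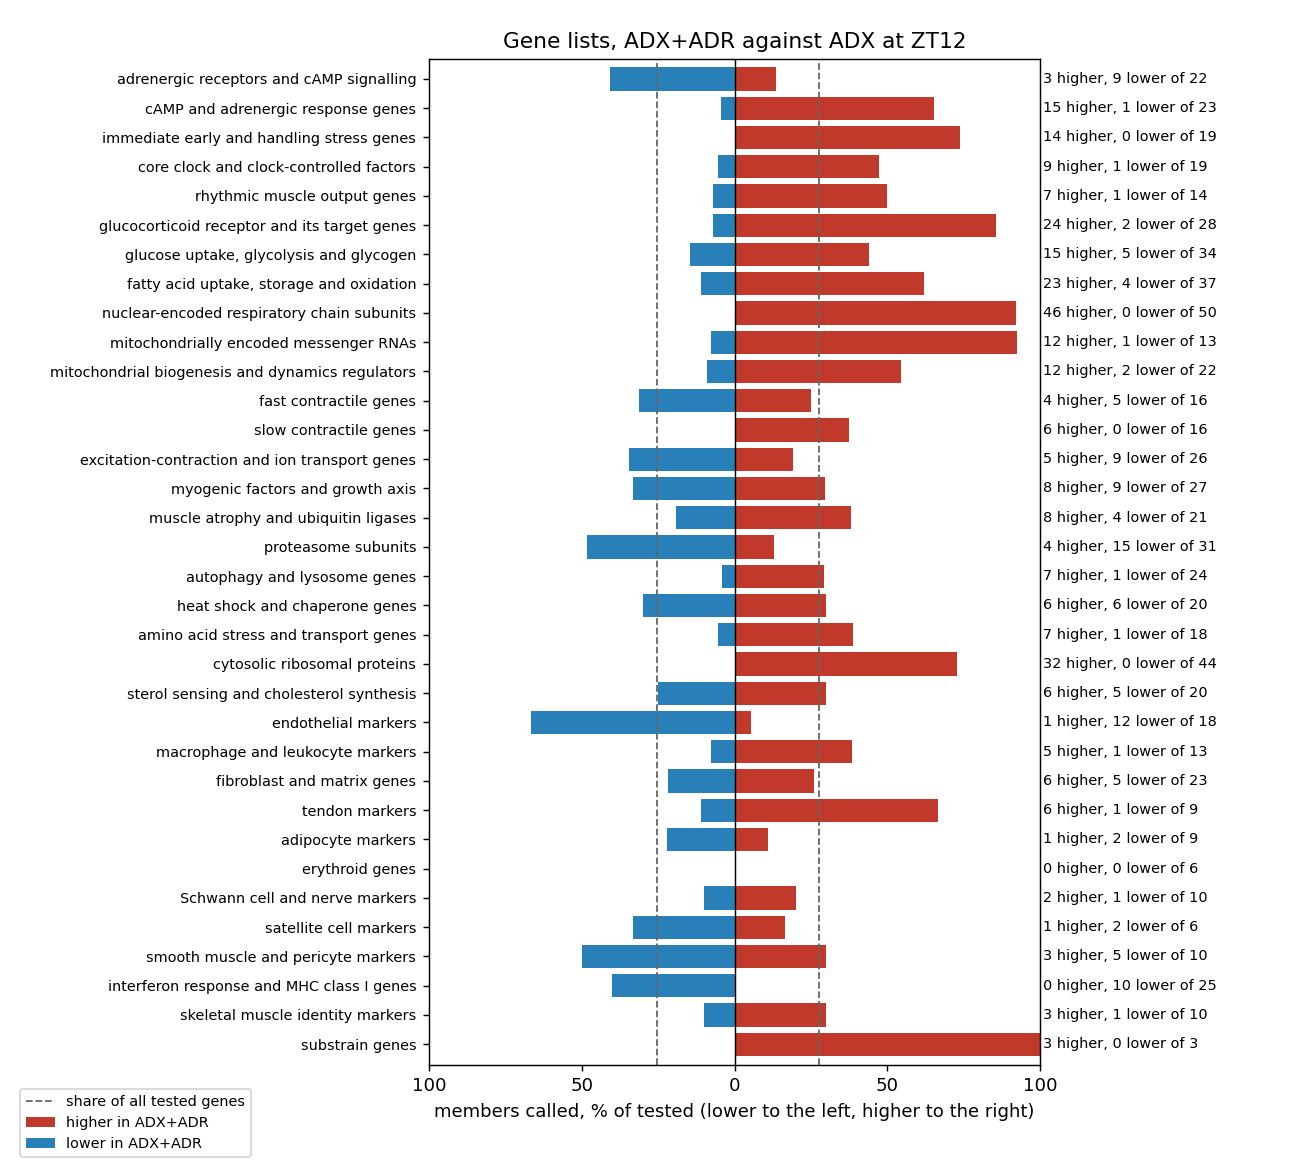
Share of tested members called higher (right) and lower (left) in ADX+ADR against ADX at ZT12 for 34 gene lists, with the counts at the right edge and dashed lines at the shares of all tested genes, 27.7% higher and 25.3% lower. Respiratory chain (46 higher of 50), glucocorticoid (24 of 28) and cytosolic ribosomal genes (32 of 44) reach furthest to the right among lists of over 20 members, and endothelial markers (12 lower of 18) furthest to the left.

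Contractile genes of slow fibres were higher where they were called, and those of fast fibres were mixed. Of 16 slow contractile genes 6 were called higher and 0 lower. Myoglobin (Mb), the oxygen store of oxidative fibres, read 2570, 2460, 2960 and 2940 FPKM in ADX+ADR libraries, against 1410, 787, 1200 and 1110 in ADX libraries (1.30 ± 0.17, limma, adjusted p = 1.33e-07). Myl3, the slow myosin light chain, averaged 68.5 ± 8.61 in ADX+ADR and 34.2 ± 12.3 in ADX, and Myl2 read 7.88 to 11.3 FPKM in ADX+ADR with all ADX libraries listed at 0. Of 16 fast genes 4 were called higher and 5 lower. The fast oxidative myosin Myh2 read 263 to 325 FPKM in ADX+ADR and 41.2 to 189 in ADX, while parvalbumin (Pvalb), the calcium buffer of fast fibres, averaged 5800 ± 427 and 7900 ± 405, the fast actinin Actn3 2680 ± 260 and 3730 ± 300, and the calcium store protein Casq1 1250 ± 143 and 1820 ± 70.6, all falls.

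Growth and protein turnover genes went both ways. The muscle E3 ligase Fbxo32 (atrogin-1), a target of FOXO factors and glucocorticoids, read 59.1, 70.9, 90.2 and 65.0 FPKM in ADX+ADR libraries, against 13.0, 20.7, 26.5 and 27.7 in ADX libraries (1.74 ± 0.30, limma, adjusted p = 8.28e-06), while its partner in atrophy, Trim63, averaged 61.0 ± 2.94 and 56.3 ± 8.70 and did not pass (adjusted p = 0.495). Fbxo32 stood at 81.0 ± 11.9 in ADX+DEX and 25.2 ± 7.82 in sham, so that ADX+ADR was above sham (1.53, adjusted p = 9.59e-05). Proteasome subunits were lower in 15 of 31 cases and higher in 4, by small amounts, as for Psma5 with 18.7 ± 0.461 FPKM in ADX+ADR and 25.3 ± 0.616 in ADX. Cytosolic ribosomal protein genes were called higher in 32 of 44 cases and lower in 0, with a median log2 difference of 0.22. Rpl8 averaged 262 ± 11.2 FPKM in ADX+ADR and 204 ± 7.41 in ADX.

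Of 27 myogenic and growth genes 8 were called higher and 9 lower. The imprinted non-coding RNA H19 was listed at 0 in all 4 ADX+ADR libraries, against 1750, 1580, 1740 and 1410 FPKM in ADX libraries and 1100 to 1450 in sham, and it was at 0 in all ADX+DEX libraries too. Its neighbour Igf2 was at 0 in 3 ADX+ADR libraries and at 0.644 in the other, against 10.1 to 12.0 FPKM in ADX. Without ADX+ADR replicate 7 the myogenic members called lower numbered 5. H19 belongs to 12 genes at 0 in all ADX+ADR libraries and at least 1 FPKM in all ADX libraries, all 12 above 0 in every sham library and 8 at 0 in every ADX+DEX library. The reverse held for 41 genes, among them Gpx3 (92 to 124 FPKM in ADX+ADR), Rgcc and Pcx, and all 41 were above 0 in every ADX+DEX library while 12 were above 0 in every sham library. How these zeros arose was not tested.

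Smaller sets also split. The small heat shock protein Cryab averaged 486 ± 47.5 FPKM in ADX+ADR and 182 ± 54.7 in ADX, whereas the cytosolic chaperone Hsp90ab1 averaged 320 ± 8.74 and 403 ± 15.2, and 6 of 20 heat shock genes were called each way. Map1lc3a, an autophagosome protein, averaged 116 ± 16.3 in ADX+ADR and 49.0 ± 5.97 in ADX, with 7 of 24 autophagy and lysosome genes called higher and 1 lower. The branched-chain transaminase Bcat2 averaged 19.5 ± 1.48 and 10.9 ± 0.986, with 7 of 18 amino acid genes called higher and 1 lower. Of 20 sterol genes 6 were called higher and 5 lower, and the cholesterol exporter Abcg1 fell to 0.351 ± 0.0714 FPKM in ADX+ADR, against 1.35 ± 0.241 in ADX. Excitation-contraction and ion transport genes were called higher in 5 and lower in 9 of 26 cases, with the calcium channel subunit Cacnb1 at 44.1 ± 2.62 and 57.7 ± 3.31.

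Markers of cells other than muscle fibres also parted the groups. Of 18 endothelial markers 12 were called lower in ADX+ADR and 1, the VEGF receptor Flt1, higher, with a median log2 difference of -0.55 and 12 lower in every leave-one-out fit. VE-cadherin (Cdh5) read 46.0, 44.0, 25.3 and 38.7 FPKM in ADX+ADR libraries, against 71.9, 68.1, 71.9 and 69.9 in ADX libraries (-0.91 ± 0.11, limma, adjusted p = 2.32e-08), and the groups did not overlap. In whole muscle, fewer cells of a type and less RNA per cell cannot be told apart. Sox18, a vascular transcription factor, averaged 3.84 ± 1.90 in ADX+ADR, 21.3 ± 0.774 in ADX and 12.3 ± 1.21 in sham, and was listed at 0 in all ADX+DEX libraries. Cdh5 in sham was 44.2 ± 1.88, which did not differ from ADX+ADR past the test (adjusted p = 0.0868). The tight junction gene Cldn5 went against the list with 85.6 ± 12.1 FPKM in ADX+ADR and 26.5 ± 2.34 in ADX, which did not pass (adjusted p = 0.127) but did on log2(FPKM + 1) at 4.09e-05. The summed FPKM of the 18 markers was 224 to 334 in ADX+ADR and 318 to 337 in ADX, and none was at 0 in all libraries of either group.

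Replicate 7 of ADX+ADR was the lowest of its group in 17 of the 18 endothelial markers and in all 25 interferon and MHC class I genes. Of those 25 genes 10 were called lower in ADX+ADR and 0 higher, but 2 without that library, 6 without ADX replicate 6 and 2 with only the 2 groups in the model. ADX+ADR replicate 6 was the highest of its group in 24 of the 25, and without it 16 were called lower. Ifit3 read 2.50, 3.93, 0.469 and 1.91 FPKM in ADX+ADR libraries, against 5.08, 4.31, 5.81 and 4.29 in ADX libraries. Its call too was lost without replicate 7, so how many of these genes are called depends on which of these libraries is in the model.

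Other markers moved less evenly. Macrophage and leukocyte genes were called higher in 5 of 13 cases and lower in 1, with a summed FPKM of 67.7 to 120 in ADX+ADR and 58.8 to 76.6 in ADX. ADX+ADR replicate 8 was the highest of its group in 11 of the 13. Fibroblast and matrix genes went both ways, 6 higher and 5 lower of 23, with sums of 422 to 729 in ADX+ADR and 445 to 668 in ADX, and 3 lower without ADX+ADR replicate 7. Gelsolin (Gsn) averaged 136 ± 26.6 in ADX+ADR and 26.2 ± 11.2 in ADX, and the basement membrane collagen Col4a2 21.6 ± 13.5 and 58.2 ± 5.63. Tendon markers summed to 41.1 to 98.2 FPKM in ADX+ADR and 5.59 to 29.7 in ADX, where Chad and Comp were at 0 in every library, as they were in sham. The amount of tendon in the samples was not tested.

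Adipocyte sums were 1240 to 1790 in ADX+ADR and 1950 to 2300 in ADX, with 1 member called higher and 2 lower of 9, and 1 lower without replicate 6 of either group. Smooth muscle and pericyte markers were called higher in 3 and lower in 5 of 10 cases, with Notch3 at 3.89 ± 0.905 in ADX+ADR and 7.39 ± 0.502 in ADX, and Rgs5 at 95.9 ± 16.8 and 162 ± 17.4. Schwann cell (2 higher, 1 lower of 10) and satellite cell markers (1 higher, 2 lower of 6) gave few calls, and the Schwann cell count of 2 higher was 1 without ADX replicate 4, 5 or 7 or ADX+ADR replicate 5 or 7. By limma's test 0 of 6 erythroid genes were called, and 5 were called lower without ADX replicate 7.

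**Figure D5:**
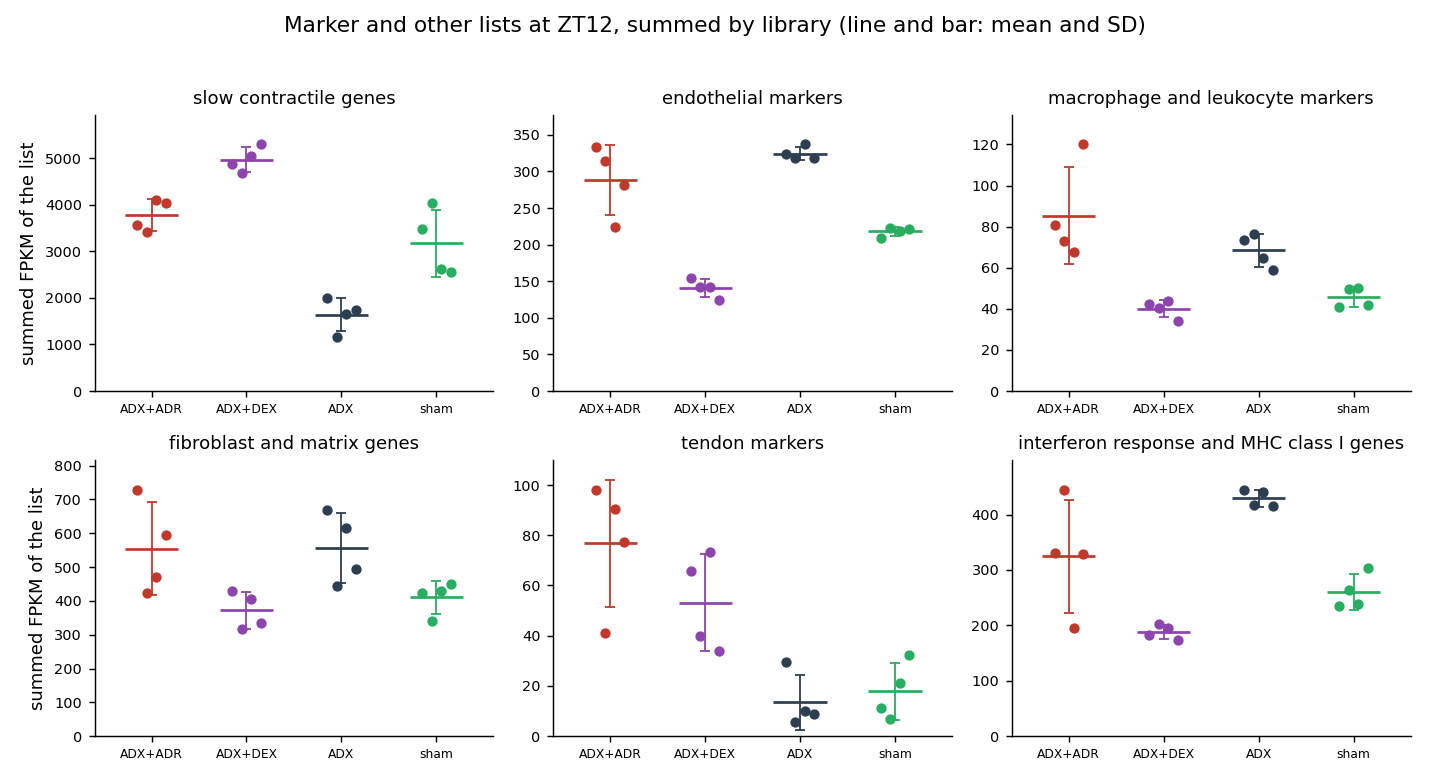
Summed FPKM of 6 gene lists at ZT12 in each library (points, with mean and SD as line and bar) of ADX+ADR, ADX+DEX, ADX and sham mice. Endothelial sums reach 224 to 334 in ADX+ADR and 318 to 337 in ADX, and tendon sums 41.1 to 98.2 in ADX+ADR and 5.59 to 29.7 in ADX.

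The ADX+ADR libraries were lastly set against the other 2 groups at ZT12, to place the treated level between intact mice and dexamethasone. These comparisons use the same ADX+ADR libraries as the main one, so their counts are given side by side. Against sham, 2051 genes (17.1%) were called higher and 2630 (21.9%) lower, 39.0% together, and against ADX+DEX 2564 (21.4%) higher and 2549 (21.2%) lower, 42.6% together. Sham mice were younger and did not undergo adrenal removal, and ages did not overlap with those of ADX+ADR.

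Of the 23 cAMP response genes 15 were called higher and 0 lower against sham, and 12 higher and 1 lower against ADX+DEX. Nr4a2 averaged 28.4 ± 2.37 FPKM in ADX+ADR and 0.398 ± 0.20 in sham (6.35, limma, adjusted p = 1.77e-07) and was listed at 0 in all ADX+DEX libraries. Sik1 averaged 31.3 ± 3.24 FPKM in ADX+ADR, 3.75 ± 0.936 in ADX+DEX and 3.62 ± 0.598 in sham, and Fosl2 13.2 ± 0.845, 0.878 ± 0.178 and 2.30 ± 0.191 in the same order. In these genes ADX+ADR stood above all 3 other groups at ZT12.

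Of the 28 glucocorticoid targets 7 were called higher and 5 lower against sham, with a median log2 difference of 0.17, and 0 higher and 12 lower against ADX+DEX, with a median of -0.54. Of the 19 clock genes 7 were higher and 6 lower against sham, and 0 higher and 5 lower against ADX+DEX. Arntl averaged 6.02 ± 0.28 FPKM in ADX+ADR, 5.33 ± 0.34 in ADX+DEX and 0.388 ± 0.382 in sham, where 1 library was at 0, and Per2 3.28 ± 0.365, 3.95 ± 0.912 and 6.59 ± 0.259. Immediate early genes were higher in 14 and lower in 1 of 19 cases against sham, and higher in 6 and lower in 2 against ADX+DEX. Jun stood at 60.3 ± 5.01 FPKM in ADX+ADR, 77.4 ± 6.68 in ADX+DEX and 8.15 ± 1.78 in sham. Both injected groups thus had higher means of Jun than both uninjected groups. The summed FPKM of the 19 genes went the same way, at 287 to 369 in ADX+DEX against 35.7 to 168 in ADX and 51.6 to 80.8 in sham. Junb did not, with 0.839 to 2.44 FPKM in ADX+DEX libraries against 1.90 to 6.85 in ADX and 0 to 3.47 in sham. The part of injection in these values was not tested.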

How the data were processed

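RNA from 47 muscle libraries was sequenced as single-end reads of total RNA, per the labels. The authors deposited 1 table of log2 FPKM values with an offset of 0.01 FPKM for 13500 genes, and the submitters' processing notes list edgeR 3.30.0, featureCounts 1.6.2, the aligner HISAT2 2.1.0 with the GRCm38 build, the trimmer Trim Galore 0.5.0 and FastQC 0.11.8. Groups came from the sample labels. No counts were at hand. Depth was estimated from the steps between low values of 68 genes, where 92.3 to 100% of values came out whole within 0.05 reads in the 8 libraries.

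Genes reaching 1 FPKM in at least 3 libraries were tested (12000) with limma 3.58.1 in R 4.3.3, with a trended variance, on the deposited log2 values. The model held 12 group means over all 47 libraries, with 35 residual degrees of freedom and no replicate block. These groups include sham and ADX mice labelled RE-RE rather than wild type, aged 8 to 18 weeks, whose spread enters every test. P-values are two-sided and adjusted by the Benjamini-Hochberg method over all tested genes of a comparison, and genes with an adjusted p under 0.05 were called. Log2 differences refer to log2(FPKM + 0.01), which understates changes of low genes, and folds are ratios of group levels on that scale. The labels do not say in words that the libraries of a group came from separate mice, so p-values measure the spread between these libraries, which may be technical. The script for the test was checked on simulated data.

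The members and the 34 gene lists (708 symbols, 672 in the table, 657 tested) were chosen with earlier results of these data known. By rule, 156 genes were chosen: the 12 largest rises and falls among called genes without overlap or zeros and with a mean of at least 1 FPKM, up to 4 called members with the smallest adjusted p of each list with at least 3 calls, adrenergic receptors, and a few fixed clock, NR4A and substrain genes. A further 52 were chosen after their values were seen. A few of these genes are not reported here. Gene positions are from the GRCm38 annotation, and promoter windows from RefSeq on GRCm38.p6. Python 3.11.15, pandas 2.3.3, numpy 2.4.6 and matplotlib 3.10.9 were used for summaries and figures.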

Additional observations from a re-analysis of the deposited data

Results flagged for a closer look

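In 28 of 394 groups of 4 values, 1 library lay far from the other 3 by Dixon's test at the 95% level, which chance does in about 1 of 20 groups. The test took zeros as listed. Where the other 3 values are at 0, it flags the remaining library by construction, and the rate of 1 in 20 does not apply. This is so for mt-Co3, Fst, Cilp2, Thbs4, Fmod, Pik3r1 and Igf2. ADX+ADR replicate 5 was the highest in FPKM of Prx (2.1, others 1.47 to 1.53). ADX+ADR replicate 6 was the highest in FPKM of Igf2 (0.644, others listed at 0) and Sgk1 (60.3, others 48.0 to 49.7). ADX+ADR replicate 7 was the highest in FPKM of Ppargc1a (6.92, others 5.8 to 5.94), Dusp1 (94.0, others 66.0 to 70.6) and Ddit4 (5.56, others 3.54 to 3.74). ADX+ADR replicate 7 was the lowest in FPKM of Prkar1a (36.3, others 42.3 to 43.4) and Per3 (4.37, others 5.89 to 6.11). ADX+ADR replicate 8 was the highest in FPKM of Tyrobp (5.13, others 2.7 to 3.09) and Adgre1 (1.23, others 0.554 to 0.658). ADX+ADR replicate 8 was the lowest in FPKM of Kcnj11 (64.7, others 67.6 to 68.1). ADX replicate 4 was the highest in FPKM of mt-Co3 (18.6, others listed at 0), Fst (0.286, others listed at 0), Cilp2 (0.219, others listed at 0), Thbs4 (5.18, others listed at 0) and Fmod (3.9, others listed at 0). ADX replicate 5 was the highest in FPKM of Myh8 (4.1, others 1.7 to 1.87) and Cd163 (0.243, others 0 to 0.0262). ADX replicate 5 was the lowest in FPKM of Atp5c1 (248, others 260 to 262) and S100b (0.0296, others 0.566 to 0.66). ADX replicate 6 was the highest in FPKM of Ifit2 (4.67, others 2.71 to 2.96) and Grk5 (2.96, others 2.44 to 2.49). ADX replicate 6 was the lowest in FPKM of Tacc2 (37.1, others 41.5 to 42.0) and Slc2a4 (98.8, others 114 to 117). ADX replicate 7 was the highest in FPKM of Pik3r1 (0.269, others listed at 0). ADX replicate 7 was the lowest in FPKM of C2cd4b (0.0551, others 0.0913 to 0.0958), Jun (3.8, others 19.4 to 21.8) and Hes1 (6.91, others 9.08 to 9.48).

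The difference between ADX+ADR and ADX was not the same at ZT12 as at ZT0 in 554 genes, by limma's test of that difference. Of these, 33 named genes with no value listed at 0 in the 4 groups are given here, each as the log2 difference of the effects, ZT12 minus ZT0, and its adjusted p. Values were highest in Nr4a2 (5.45, 0.00575), C2cd4b (5.41, 0.000356), C2cd4a (4.49, 0.0063), Sik1 (3.72, 0.00557), Apold1 (3.53, 0.0256), Slc25a25 (3.16, 0.0158) and Csrnp1 (3.13, 0.00209). Next came Maff (2.97, 1.43e-05), Nr4a3 (2.94, 0.0433), Fosl2 (2.89, 2.53e-05), Uts2r (2.64, 0.00142), Hes1 (2.57, 4.1e-10), Klf10 (2.29, 0.00134) and Ptger4 (2.16, 0.00214). Then followed Cbarp (2.02, 0.000863), Nr4a1 (1.87, 0.0127), Irs2 (1.83, 0.00144), Gem (1.59, 0.000341), Myc (1.4, 0.0417), Per3 (1.28, 0.000165) and Bhlhe40 (1.26, 9.93e-05). Smaller were Jund (0.9, 0.0219), Nr1d2 (0.72, 0.00145), Crem (0.58, 0.0421) and Psmb5 (0.25, 0.0393). In 8 of these 33 genes the difference was lower at ZT12: Mir133a-1 (-3.96, 1.91e-05), Lfng (-2.96, 8.64e-06), Has3 (-2.6, 0.00669), Plin3 (-2.52, 0.00142), Tacc2 (-1.98, 2.34e-06), Sox18 (-1.66, 0.00104), Ppara (-1.21, 0.0224) and Srebf2 (-0.57, 0.00365). Of the 33 genes, Apold1, Crem, Jund, Myc, Nr4a3, Plin3, Ppara, Psmb5 and Sox18 lost the call in at least 1 of the other settings tried without a replicate block, and Crem (12), Myc (11), Nr4a3 (10) and Psmb5 (11) kept it in the fewest of 24 settings, the reported one included. Klhl38 and Pnmt also passed in limma's test, with adjusted p of 0.00156 and 0.00142, and were lower at ZT12, but 2 and 3 of their 3 ADX libraries at ZT0 are listed at 0, so no size is given.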

How the results depend on the processing

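Between ADX+ADR and ADX at ZT12, 6357 genes were called, and 5900 to 6976 with another offset (1 FPKM), no filter, equal library medians, only the 2 groups in the model, age as a covariate, genes with zeros left out or robust moderation. Leaving out 1 library gave 5462 (without ADX+ADR replicate 7) to 6216 calls (without ADX+ADR replicate 5). With the replicate number as a block and only the groups compared in the model, 1719 genes were called, 2754 (of 4681) against sham and 62 for ZT12 minus ZT0. Between ADX+ADR and ADX at ZT12 that block leaves ADX replicate 4 and ADX+ADR replicate 8 without a same-numbered library. These libraries then do not inform the difference, so the setting also rests on fewer libraries. The labels do not say what a replicate number marks. Deviations of same-numbered libraries 5, 6 and 7 correlated at -0.17, 0.05 and 0.06, against -0.13 to 0.13 for other pairs. So few values cannot settle whether same-numbered libraries belong together. For ZT12 minus ZT0, 554 genes were called, 366 with only the 4 groups in the model, 340 without ADX+ADR replicate 3 at ZT0 to 626 without ADX replicate 1 at ZT0, and 338 without 7 libraries of the series that share at most 1 exact value with the rest of their group, a setting chosen after seeing the data. The cause was not tested. Leaving out 1 library gave 4100 to 4343 calls against sham and 4486 to 5053 of 5113 against ADX+DEX. Equal medians moved the share of higher calls against ADX+DEX to 42.9%, against 50.1% as deposited. Of 175 named genes without zeros, no log2 difference changed sign. With the replicate block 75 lost and 2 gained a call, with only the 2 groups in the model 7 lost and 3 gained a call, with log2(FPKM + 1) 2 gained one, with age as a covariate 2 lost one, and leaving out 1 library lost 2 to 6. Depth limits low values, where 1 read is a large step, and zeros in strongly expressed genes limit what can be said of 33 named genes.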
